A study of Mus musculus with 8 samples.

Results

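The genes described here encode molecular chaperones, their co-chaperones and components of the unfolded protein response (UPR) in 4 types of mouse CD4 T helper cell. They were listed by name and not ranked by a measured value, though earlier results of these data were known when the list was made. A list of 44 gene symbols was matched to the array annotation, and each gene was represented by its probe set of highest average level. Of the 44 genes, 42 had a probe set that names 1 gene, out of 18193 such genes on the array. Hsp90ab1 and Hsf1 were not analysed here. The 42 genes fell into 18 of the cytosol, 4 of mitochondria, 14 chaperones and folding enzymes of the endoplasmic reticulum (ER), and 6 sensors, transcription factors and degradation factors of the ER. All 42 were among the 11178 genes kept for testing, those with 2 or more arrays above 3.13 (log2).

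Chaperones bind unfolded protein chains and help them reach or keep their folded form, and each compartment of the cell has its own set. In the cytosol the HSP70 and HSP90 systems and the ring-shaped TRiC complex act on new and stress-damaged proteins, and heat shock factor raises the inducible members when proteins unfold. Proteins bound for secretion or the cell surface fold in the ER, where unfolded chains activate the sensors IRE1 (gene Ern1), ATF6 and PERK. These raise ER chaperones and degradation factors, partly through the transcription factor XBP1. Activated T helper cells make and secrete cytokines, and thus place proteins into this pathway.

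RNA was measured on 8 Affymetrix mouse arrays, 2 for each of 4 groups. The Tfh (T follicular helper) group held CD4 T cells sorted for surface CXCR5. Their source was the spleen of C57BL/6 mice given KLH (keyhole limpet haemocyanin) 7 days before, and they were restimulated with anti-CD3 for 4 h. The labels give no age for these mice. The other groups came from naive CD4 T cells of spleen and lymph node of OT-II mice on the C57BL/6 background, which carry a transgenic T cell receptor for an ovalbumin peptide and were 6 to 8 weeks old. They were cultured for 5 days with that peptide and antigen-presenting cells (APC). Th1 cultures received IL-12 and anti-IL-4, and Th2 cultures IL-4 and anti-IFNg. Th17 cultures received IL-6, TGFb, anti-IL-4 and anti-IFNg. Immunized mice, sorting and restimulation thus set the Tfh group apart from the cultured groups together with cell type, and these cannot be told apart. The labels do not say whether arrays of a group came from separate animals or cultures, so the p-values measure only the spread between these arrays, which may be technical.

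The 7 T cell markers measured were present on all 8 arrays, and Cxcr5 (used for the sort), Bcl6 and Pdcd1 were highest in Tfh, Ifng in Th1, Il4, Il5 and Il13 in Th2, and Il17a in Th17. The lineage factors did not all follow the labels: Tbx21 read 10.66 and 10.59 in Tfh and 10.89 and 9.43 in Th1, Gata3 read 10.67 and 10.52 in Tfh and 10.44 and 11.13 in Th2, and Foxp3 read 10.79 and 10.73 in Tfh and 2.36 to 2.40 in culture. Markers of other cells were unevenly spread. All 8 granulocyte genes exceeded the filter value in both Tfh arrays, with a log2 summed level of 16.09 to 16.14. The cultured arrays had 5.44 to 11.87, the highest of them Th2 replicate 1, and 4 of the 6 had none of the 8 genes above the filter value. Of 9 B cell genes on the array, 6 exceeded it in Tfh (Cd79a at 8.02 and 7.93, Ms4a1 at 7.90 and 7.97), with a summed level of 9.95 to 9.97 against 6.4 to 9.83 in culture, while Pax5 and Vpreb3 did not exceed it on any array. The 8 plasma cell genes had a sum of 13.90 to 14.09 in Tfh against 12.21 to 13.46 in culture. Of these, 6 exceeded the filter value in Tfh (Jchain at 10.11 and 10.17, Irf4 highest at 13.69 and 13.44). Tnfrsf17 did not exceed it on any array. Of 14 myeloid and dendritic genes 12 exceeded it in Tfh (Lyz2 at 11.42 and 11.31), with a sum of 13.92 to 13.95 against 11.72 to 13.75. The Tfh arrays also had a different distribution of values: the median tested gene stood at 8.83 and 8.84 in Tfh and at 7.59 to 7.69 in the cultured arrays. The median difference of Tfh from the mean of the cultured groups was therefore 0.84 on the log2 scale as deposited. It was -0.35 after shifting arrays to 1 median, -0.17 after quantile normalization and -0.03 after cyclic loess, a shift that varies with level. A difference was called when limma's Benjamini-Hochberg adjusted p was under 0.05 and its log2 size at least 1.

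Against the mean of the cultured groups, Tfh cells had lower transcript of the mitochondrial co-chaperonin Hspe1 and of the ER folding genes Pdia6, Sdf2l1, Manf and Hyou1. These 5 of 42 genes compare with 6.66% of all tested genes called lower. The 4 calls in the other direction were Hspa1a, Bag3, Ern1 and Atf6 (the last negative under the 3 other scalings), against 43.7% of all tested genes called higher. Leaving out 1 array moved these 4 to 1 (either Tfh array) or 2 (Th1 replicate 2 or either Th2 array), and the 5 to 8 (Th17 replicate 2). The compartments differed in their medians: 0.05 for the 18 cytosolic genes, -0.85 for the 4 mitochondrial genes, -0.69 for the 14 ER chaperones and 0.38 for the 6 ER sensors and degradation factors. The 5 lower calls held in all 4 scalings (background 6.63%) and also in each of the 8 fits that left out 1 array (background 4.26%). By probe set, the other set of Hspe1 gave -0.72 and that of Pdia6 -0.83, both under the size for a call, and Hyou1 ranged from -2.18 to 0.26. Sdf2l1 and Manf had 1 probe set above the filter value. In all these scalings and fits the higher call was also made for Bag3 (backgrounds 12.6% and 12.5%). With no size threshold 13 were lower, against 12.5% of all tested genes. Here and below, counts from single fits with 1 array left out stand without the share of all tested genes called in that fit. In bulk RNA, fewer cells of a type and less RNA per cell cannot be told apart.

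**Figure D1:**
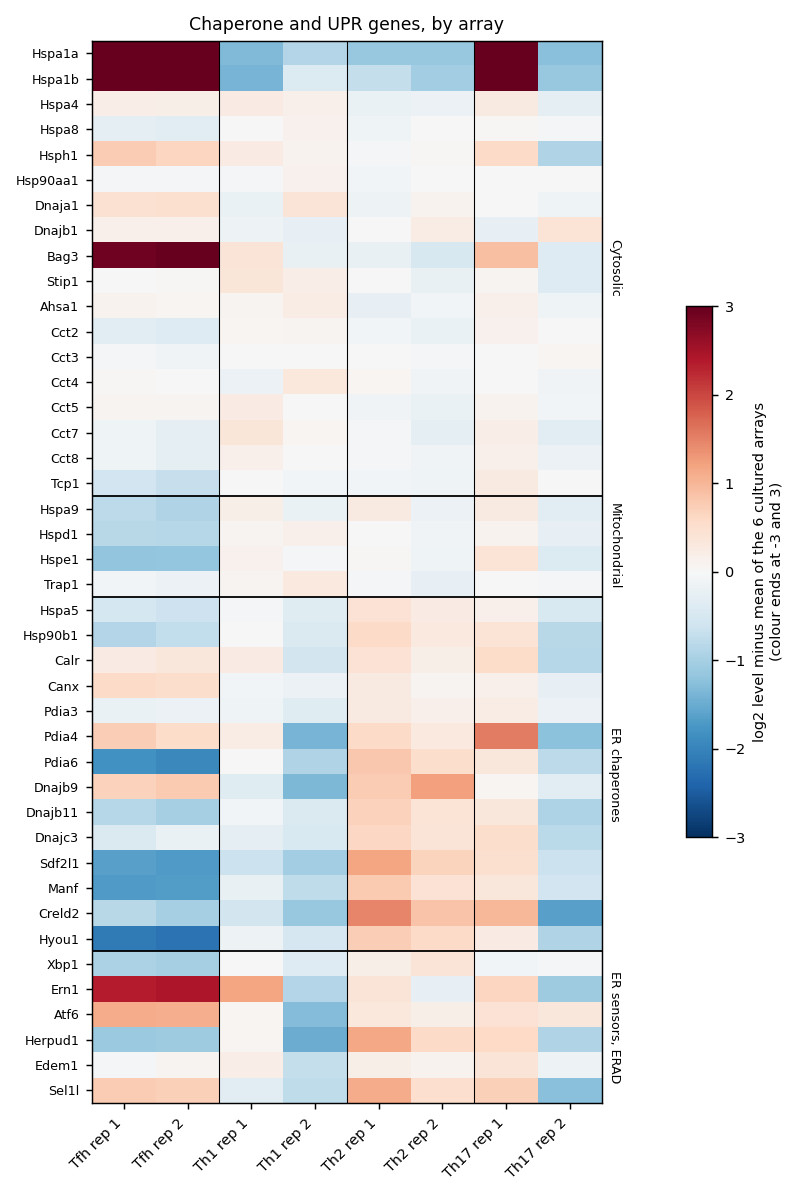
Each row is 1 of the 42 genes and each column 1 array; colour is the log2 level minus the mean of the 6 cultured arrays, blue below and red above, with the scale ending at -3 and 3. The 2 Tfh columns are blue for Pdia6, Sdf2l1, Manf and Hyou1 and red for Hspa1a, Hspa1b, Bag3 and Ern1, and the Th17 columns differ from each other in the ER rows.

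The size of the Tfh difference varied with level across all tested genes, and most of the 42 genes lie at high levels. The median gene differed by 1.30 at log2 levels of 6 to 8, by 0.63 at 10 to 12 and by 0.04 at 14 to 17. Of the 42 genes, 32 were among the 2432 tested genes with a mean level over 10. Those 2432 genes had a median difference of 0.50, with 29.6% called higher and 4.11% called lower. The median of the 42 genes was -0.10 as deposited. After cyclic loess it was -0.48, with class medians of -0.13 for cytosolic, -1.14 for mitochondrial, -0.93 for ER chaperones and -0.41 for the sensors and degradation factors, whose sign thus turned. Under the other scalings, lower calls were more numerous both among the 42 genes and among all tested genes. Against the cultured mean they were 29 after the median shift (background 28.9%), 15 after quantile normalization (22%) and 10 after cyclic loess (18.4%). Against Th1 they were 26, 12 and 10, with backgrounds of 28.5%, 21.2% and 17.8%. Against Th2 they were 28, 16 and 14, with 29.1%, 21.3% and 18.7%. Against Th17 they were 27, 12 and 9, with 26%, 20.3% and 16.5%. Higher calls were 0 or 1 in each of these 12 counts, against 14.8%, 15.7% and 17.9% for the cultured mean, 14.4%, 15.6% and 17.9% for Th1, 15%, 16.1% and 18.3% for Th2, and 13.5%, 14% and 16.3% for Th17.

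Markers of other cells moved with the Tfh group. All 8 granulocyte genes, the B cell gene Cd22, the plasma cell gene Jchain and the myeloid gene Lyz2 were called higher in all 4 scalings. The dendritic and myeloid genes Itgax and Mrc1 and the plasma cell gene Derl3 were called lower, as were Gzma and Nkg7 of a list for CD8 T and natural killer cells. Of the 6 B cell genes tested 4 were higher as deposited, with a median difference of 2.19. Their part in these differences was not tested.

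**Figure D2:**
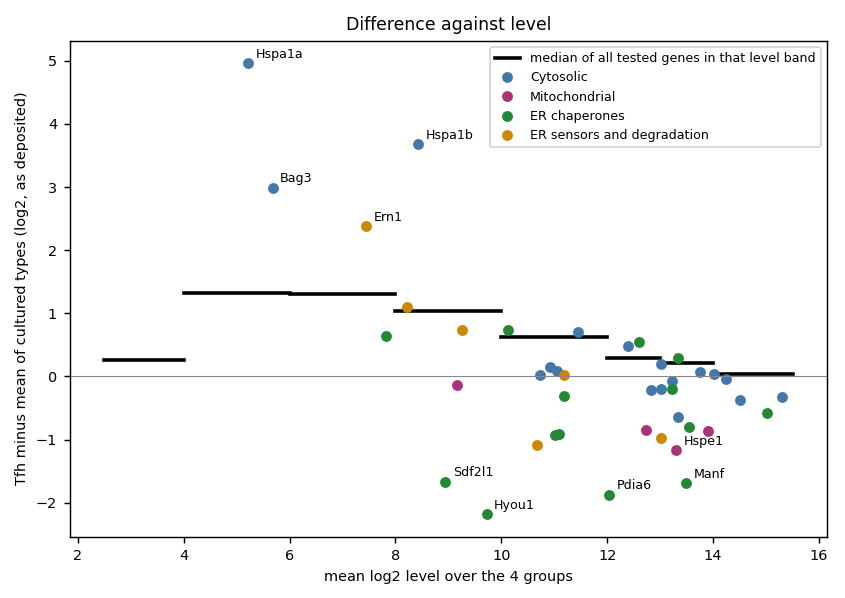
The horizontal axis is the mean log2 level over the 4 groups and the vertical axis Tfh minus the mean of the cultured groups (log2, as deposited); points are the 42 genes by compartment and black lines the median of all tested genes in each band of level. The ER chaperones Hyou1, Sdf2l1, Pdia6 and Manf and the mitochondrial Hspe1 lie at -2.18 to -1.17, under the line of their band, and Bag3, Ern1, Hspa1a and Hspa1b lie above it.

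Among the cytosolic genes, the chosen probe sets of Hspa8 and Hsp90aa1 differed by under 0.5 on the log2 scale over all 8 arrays. Hspa8, the constitutive HSP70, read 15.08 and 15.03 in Tfh, 15.39 and 15.52 in Th1, 15.25 and 15.37 in Th2, and 15.41 and 15.34 in Th17. Both Tfh arrays lay below all cultured arrays, by a mean of -0.33 (SE 0.08, limma adjusted p 0.00983), which is under the size needed for a call. Hsp90aa1, the inducible HSP90, spanned only 14.17 to 14.39 over the 8 arrays, with a Tfh difference of -0.05 (SE 0.07). This rests on the probe set chosen: the other 2 high-level sets gave -0.64 (13.41 and 13.42 in Tfh, 14.01 to 14.18 in culture) and -0.59, both with no overlap.

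Apart from Bag3, described below, the nucleotide exchange factors, J proteins and HSP90 co-chaperones also showed differences under 1 on the log2 scale in their chosen probe sets. Other probe sets reached 1.79 for Hspa4, 1.66 for Ahsa1 and 1.09 for Dnaja1 as deposited. Hsph1, an HSP110 exchange factor, read 12.04 and 11.92 in Tfh and 10.36 to 11.84 in the cultured arrays, so that the groups did not overlap. Its difference was 0.71 (SE 0.37, limma adjusted p 0.128) and turned to -0.48 after the median shift. Dnaja1, a J protein that stimulates HSP70, was 0.48 higher in Tfh (SE 0.17, limma adjusted p 0.0424), again with no overlap, but -0.71 with arrays shifted to 1 median and -0.04 with quantile normalization. Hspa4, Dnajb1, Stip1 (which joins HSP70 to HSP90) and Ahsa1 (which activates the HSP90 ATPase) had differences of 0.02 to 0.20, none passing the test as deposited and each turning negative under all 3 other scalings.

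Subunits of TRiC, which folds actin and tubulin among other clients, split by small amounts. Tcp1 read 12.93 and 12.80 in Tfh and 13.38 to 13.77 in the cultured arrays, a difference of -0.64 (SE 0.10, limma adjusted p 0.00168). Cct2 was 14.25 and 14.22 in Tfh and 14.40 to 14.73 in culture, a difference of -0.37 (SE 0.07, limma adjusted p 0.00551). For both genes, the Tfh arrays lay below all cultured arrays. Cct6a, a further subunit outside the list, read 13.60 and 13.66 in Tfh and 14.04 to 14.32 in culture, a difference of -0.54 (SE 0.10, limma adjusted p 0.00323). The other 5 listed subunits (Cct3, Cct4, Cct5, Cct7 and Cct8) differed by -0.21 to 0.07 and none passed the test as deposited. Cct4 and Cct5 are positive as deposited and negative under the 3 other scalings. This split of the subunits rests on the probe sets chosen. Another Cct3 set gave -0.83 with no overlap (10.89 and 10.84 in Tfh, 11.63 to 11.73 in culture), and another Cct7 set -0.44. Sets of Cct4 ran from -0.17 to 1.09 and those of Cct2 from -0.37 to 0.07. Over the 42 genes, both Tfh arrays lay below all 6 cultured arrays for 12 (13.8% of all tested genes did so) and above them for 6 (60.5% of all tested genes).

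Among the 18 cytosolic genes, Bag3, Hspa1a and Hspa1b had the largest Tfh differences as deposited. The inducible Hsp90aa1 did not share this, with -0.05 in its chosen probe set. Bag3, a co-chaperone that links HSP70 to the removal of damaged proteins, read 7.84 and 8.00 in Tfh, 5.33 and 4.72 in Th1, 4.71 and 4.46 in Th2, and 5.84 and 4.54 in Th17. Every Tfh array lay above every cultured array. The mean difference was 2.99 (SE 0.37, limma adjusted p 0.000764), or 7.93-fold, and it was 1.42 after quantile normalization and 1.79 after cyclic loess.

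Hspa1a, a stress-induced HSP70, read 8.89 and 9.0 in Tfh, 2.67 and 3.11 in Th1, and 2.86 and 2.85 in Th2. In Th17 it read 9.70 in replicate 1 and 2.73 in replicate 2, so 1 of the 6 cultured arrays lay above both Tfh arrays and the other 5 sat far below. Its neighbouring copy Hspa1b had the same shape, at 11.05 and 11.33 in Tfh, 12.19 and 6.38 in Th17, and 6.12 to 7.10 in Th1 and Th2. Because these genes are near-identical, the probes may not separate them. In Hspa1a, 5 of the 6 cultured arrays lay at or below the filter value of 3.13, where values have no sure order, so its sizes are fitted values; with those arrays raised to 3.13 the difference was at least 4.72. The Tfh difference of Hspa1a as deposited was 4.96 (SE 1.68, limma adjusted p 0.0383), and the call did not hold in the 3 other scalings (3.77 to 3.91). Without either Tfh array, either Th1 array or either Th2 array the adjusted p was 0.0677 to 0.153. Without Th17 replicate 1 the difference was 6.12 (limma adjusted p 2.37e-05) and without Th17 replicate 2 it was 3.80 (limma adjusted p 0.000101). Hspa1b differed by 3.68 (SE 1.43, limma adjusted p 0.0590), with 4.65 without Th17 replicate 1 and 2.71 without Th17 replicate 2, both called.

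Th17 replicate 1 stood alone in a further heat shock gene outside the list. Hspb1, a small heat shock protein, read 7.26 on that array and 2.29 to 2.57 on the other 7. Hsph1 and Bag3 were also highest there among the cultured arrays, at 11.84 and 5.84. Not all followed: Dnajb1 read 10.63 there and 11.28 in Th17 replicate 2, and Hspb8 (2.31) and Cryab (2.89) lay under the filter value there. With both arrays kept, Hspa1a was not called between Th17 and Th1 or Th2 (limma adjusted p 0.691 and 0.549). Without Th17 replicate 2 Hspa1a was called in both pairs, at -6.81 for Th1 minus Th17 (limma adjusted p 0.00339) and -6.85 for Th2 minus Th17 (limma adjusted p 0.00210), as was Hspa1b at -5.59 and -5.56. These calls rest on the single array that remains, set against arrays at or below the filter value for Hspa1a.

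**Figure D3:**
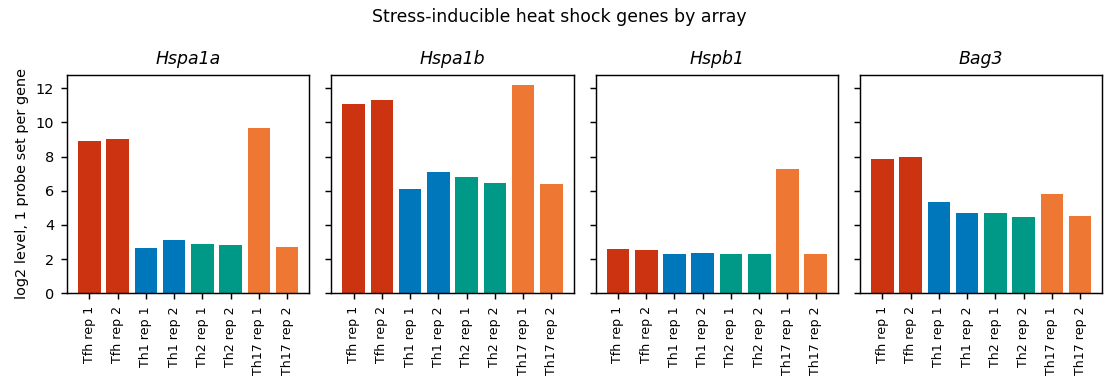
Bars give the log2 level of 1 probe set per gene on each of the 8 arrays, coloured by group, for Hspa1a, Hspa1b, Hspb1 and Bag3, with the axis starting at 0. Both Tfh arrays and Th17 replicate 1 are high in Hspa1a (8.89, 9.0 and 9.70) and Hspa1b, Hspb1 is high in Th17 replicate 1 alone, and Bag3 is highest in both Tfh arrays.

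All 4 mitochondrial chaperones had a negative Tfh difference. Hspe1, the HSP10 lid of the mitochondrial chaperonin, read 12.42 and 12.43 in Tfh, 13.73 and 13.56 in Th1, 13.63 and 13.46 in Th2, and 14.02 and 13.19 in Th17. The Tfh arrays lay below every cultured array, by -1.17 (SE 0.22, limma adjusted p 0.00393), or 2.25-fold. This probe set may be shared with other transcripts by its name, and the only other set gave -0.72. Its partner Hspd1, the HSP60 barrel, read 13.27 and 13.24 in Tfh and 13.86 to 14.25 in culture. Hspa9, the mitochondrial HSP70, read 12.16 and 12.05 in Tfh and 12.63 to 13.22 in culture.

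Neither Hspd1 (-0.86, SE 0.11, limma adjusted p 0.000855) nor Hspa9 (-0.85, SE 0.21, limma adjusted p 0.0123) reached the size for a call, though neither overlapped between Tfh and culture. The other Hspa9 probe sets above the filter value gave -0.85, -3.02 and -4.70, so its chosen set has the smallest difference, and the mean of its sets was called (-2.04). Trap1, the mitochondrial HSP90, differed by -0.13 (SE 0.12), and its Tfh values of 9.11 and 9.02 lay inside the cultured range of 8.94 to 9.48. Its probe sets disagreed in sign, from -0.13 to 0.51. Among the 3 cultured types no mitochondrial gene was called, and their differences lay between -0.10 and 0.33.

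Hspd1 and Hspe1 lie head to head on chromosome 1 and share 1 promoter region. The RefSeq promoter table (GRCm38.p6) was searched over the 250 bases before each start for the heat shock element, written here as 3 alternating units, GAANNTTCNNGAA or TTCNNGAANNTTC, on both strands. A match was held by 0.514% of its 27025 genes. Of the 35 listed genes in the table, matches stood upstream of Hspd1 and Hspe1 only, where both readings fall on the same 38-base stretch, chr1:55088049-55088086. It is shown on each gene's strand because a single stretch serves both partners, with the overlapping matches in capitals. The ranges given run from the first base of the matches to the base just after them.
Hspd1 (minus strand, 144 to 126 bases before the start): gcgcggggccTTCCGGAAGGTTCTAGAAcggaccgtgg
Hspe1 (plus strand, 89 to 71 bases before the start): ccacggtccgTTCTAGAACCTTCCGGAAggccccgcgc
No match in this window was found among the 15 cytosolic genes searched, Hspa1a, Hspa1b and Bag3 included. That says only that these letters are not there.

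Of the 14 ER chaperones, 4 were lower in Tfh against the cultured mean and 0 higher, where 6.66% of all tested genes were lower and 43.7% higher. At an unadjusted p under 0.05, 6 were lower and 2 higher, against 13.2% and 60.6% of all tested genes. Of the 12 with a RefSeq promoter entry, 7 carry the ER stress element in the 250 bases before their start. These stretches are shown because the element is more frequent in this class than among all promoters. The element was searched as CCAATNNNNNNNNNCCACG on both strands, and it was present in 0.13% of the 27025 promoters, 35 genes in all, but in 58.3% of the ER chaperones searched. Capitals mark the whole match, which reads from CCAAT to CCACG or, on the opposite strand, from CGTGG to ATTGG.
Hspa5 (chr2:34772015-34772053, plus strand): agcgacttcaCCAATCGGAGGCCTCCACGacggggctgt
Pdia6 (chr12:17266481-17266519, plus strand): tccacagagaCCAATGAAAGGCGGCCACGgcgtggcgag
Dnajc3 (chr14:118937817-118937855, plus strand): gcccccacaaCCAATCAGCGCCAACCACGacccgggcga
Creld2 (chr15:88819510-88819548, plus strand): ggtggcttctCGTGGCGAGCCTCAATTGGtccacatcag
Canx (chr11:50325790-50325828, minus strand): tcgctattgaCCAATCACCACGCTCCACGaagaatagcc
Calr (chr8:84847065-84847103, minus strand): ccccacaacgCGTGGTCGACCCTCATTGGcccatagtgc
Hsp90b1 (chr10:86705523-86705666, minus strand, 2 matches): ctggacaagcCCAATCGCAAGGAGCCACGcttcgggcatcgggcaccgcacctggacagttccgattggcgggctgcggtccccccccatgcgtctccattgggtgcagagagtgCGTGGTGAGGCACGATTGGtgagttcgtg
The Hspa5 match begins 65 bases before the start. The shorter CCAAT box, which overlaps every ER stress element, was found upstream of all 12 ER chaperones in the table, of 60% of the 15 cytosolic genes and of 37.5% of all genes. A match is a description of letters and not of binding.

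The genes with the ER stress element did not all move alike in Tfh. Hspa5 (BiP, the ER HSP70) read 14.63 and 14.54 in Tfh, 15.12 and 14.80 in Th1, 15.58 and 15.41 in Th2, and 15.32 and 14.71 in Th17. Tfh lay below all cultured arrays, by -0.57 (SE 0.18, limma adjusted p 0.0311). Hsp90b1 (GRP94, the ER HSP90) read 12.88 and 13.02 in Tfh and 12.92 to 14.33 in culture, overlapping Th17 replicate 2. Its difference was -0.80 (SE 0.33, limma adjusted p 0.0727), and a second probe set gave -2.38.

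The lectin chaperones, which hold glycoproteins during folding, did not share this direction. Canx, the membrane-bound calnexin, read 13.04 and 12.99 in Tfh and 12.22 to 12.74 in culture, with no overlap and a difference of 0.54 (SE 0.13, limma adjusted p 0.0103), which turned to -0.65 after the median shift. Calr, soluble calreticulin, had a difference of 0.29 (SE 0.40), with the sign turned by the median shift and by quantile normalization. Probe sets of Hspa5 and Canx disagreed in sign, from -1.12 to 0.23 and from -0.54 to 0.64.

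The disulphide isomerases split. Pdia6 read 10.69 and 10.58 in Tfh, 12.52 and 11.59 in Th1, 13.32 and 13.03 in Th2, and 12.84 and 11.72 in Th17. Each Tfh array was below every cultured array, with a mean difference of -1.87 (SE 0.36, limma adjusted p 0.00469), or 3.66-fold. Pdia3, which works with the lectin chaperones, differed by -0.19 (SE 0.13). Pdia4 differed by 0.64 (SE 0.78), with Tfh values of 8.39 and 8.20 inside a cultured range of 6.26 to 9.19, and was negative under the 3 other scalings.

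Sdf2l1, a partner of the ER J proteins, read 7.72 and 7.66 in Tfh, 8.71 and 8.31 in Th1, 10.55 and 10.03 in Th2, and 9.84 and 8.72 in Th17. Manf, a secreted and ER-resident factor that binds BiP, read 12.21 and 12.24 in Tfh, 13.69 and 13.15 in Th1, 14.71 and 14.36 in Th2, and 14.25 and 13.33 in Th17. Hyou1 (GRP170, an exchange factor for BiP) read 8.14 and 8.05 in Tfh, 10.12 and 9.77 in Th1, 11.01 and 10.85 in Th2, and 10.52 and 9.36 in Th17. In all 3 genes Tfh was lowest, Th2 highest, and no Tfh array overlapped a cultured one.

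The Tfh differences were -1.67 for Sdf2l1 (SE 0.33, limma adjusted p 0.00489), -1.69 for Manf (SE 0.28, limma adjusted p 0.00228) and -2.18 for Hyou1 (SE 0.30, limma adjusted p 0.00121), the last a 4.52-fold difference. The Hyou1 value depends on the probe set: among probe sets without shared-probe names the difference was 0.26 (limma adjusted p 0.688), with 0.74 against Th1, -0.59 against Th2 and 0.63 against Th17, none called. The J proteins of the ER were uneven. Dnajb11, which delivers chains to BiP, differed by -0.93 (SE 0.33, limma adjusted p 0.0458) and Dnajc3, also an inhibitor of PERK, by -0.32 (SE 0.34). Dnajb9, which restrains IRE1 through BiP, differed by 0.73 (SE 0.29, limma adjusted p 0.0603) and was negative under the 3 other scalings. Creld2, a calcium-binding ER protein, differed by -0.91 (SE 0.67).

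**Figure D4:**
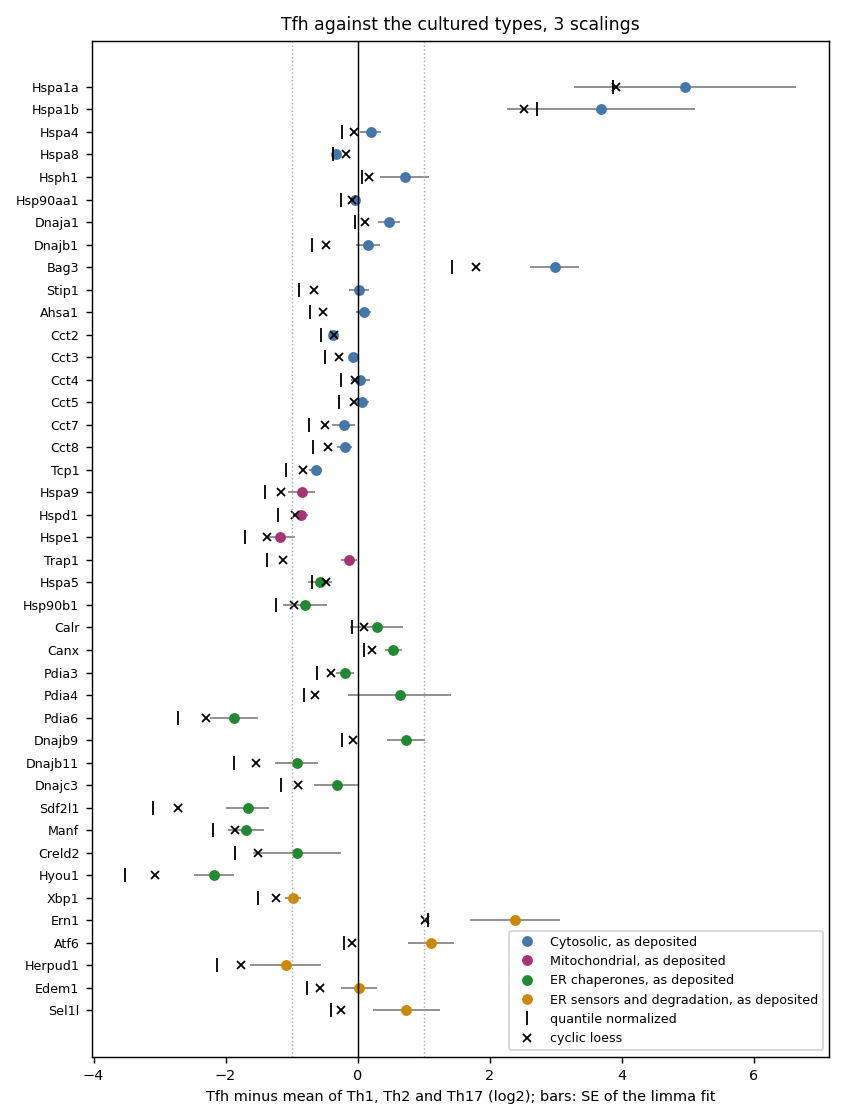
Horizontal axis: Tfh minus the mean of Th1, Th2 and Th17 (log2); circles are values as deposited, coloured by compartment, with bars for the SE of the limma fit, and black marks are the same difference after quantile normalization and after cyclic loess. Dotted lines mark -1 and 1; Hspe1, Pdia6, Sdf2l1, Manf, Hyou1 and Herpud1 lie below -1 and Hspa1a, Hspa1b, Bag3 and Ern1 above 1 in all 3 scalings drawn, while Atf6 lies at 1.11 as deposited and under 0 in the others.

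Against single cultured types, which share the same 2 Tfh arrays, the lower calls were most numerous for Th2. Against Th1, 4 of the 42 genes were lower in Tfh (Hspe1 -1.22, Pdia6 -1.42, Manf -1.20 and Hyou1 -1.85), with 6.16% of all tested genes called lower. Against Th17, 5 were lower (Hspe1 -1.18, Pdia6 -1.65, Sdf2l1 -1.59, Manf -1.57 and Hyou1 -1.85), with a background of 6.17%. Against Th2, 9 were lower, with a background of 6.89%: Hspe1 (-1.12), Hsp90b1 (-1.23), Pdia6 (-2.54), Dnajb11 (-1.49), Sdf2l1 (-2.60), Manf (-2.32), Hyou1 (-2.84), Xbp1 (-1.25) and Herpud1 (-1.95). The SE was 0.15 to 0.66 over these 18 values, their limma adjusted p 0.000806 to 0.0412, and all 18 calls held in the 4 scalings (backgrounds 6.11%, 6.12% and 6.86% against Th1, Th17 and Th2).

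The calls that also held without each array in turn were Hspe1 and Hyou1 against Th1, Manf and Hyou1 against Th17, and Pdia6, Sdf2l1, Manf, Hyou1 and Xbp1 against Th2 (backgrounds 3.71%, 3.69% and 4.37%). Leaving out either Tfh array, or Th2 replicate 1, left 5 lower calls against Th2. Either Tfh array, or Th1 replicate 1, left 2 against Th1. Against Th17, either Tfh array left 2, Th17 replicate 1 left 3 and Th17 replicate 2 gave 9. With no size threshold 10, 11 and 13 genes were lower than in Th1, Th17 and Th2, against 10.7%, 10.4% and 11.1% of all tested genes. The counts from single fits with 1 array left out have no such background, so a rise or fall in them may not be particular to these genes.

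Higher calls against single types were fewer than in the background. Hspa1a (6.06), Bag3 (2.9), Dnajb9 (1.59) and Atf6 (1.73) were higher than in Th1, where 42.8% of all tested genes were called higher. Hspa1a (6.09), Bag3 (3.33) and Ern1 (2.32) were higher than in Th2 (also 42.8%), and Bag3 (2.73) and Ern1 (2.59) than in Th17 (41.8%). Their SE was 0.35 to 2.06. Of these 9 calls, Bag3 against Th2 alone held in all 4 scalings (backgrounds 12.3%, 12.8% and 11.5% against Th1, Th2 and Th17) and without each array in turn (backgrounds 12.2%, 12.7% and 11.5%). Without Tfh replicate 1 the counts were 2, 1 and 1, without Tfh replicate 2 each was 1, and without either Th2 array those against Th2 and Th17 were each 1. Without either Th17 array the count against Th1 was 7, and against Th17 it was 7 without replicate 1 and 1 without replicate 2.

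The sensors and degradation factors of the ER had both directions. Ern1, which encodes the sensor IRE1 alpha, read 9.21 and 9.27 in Tfh, 8.03 and 5.97 in Th1, 7.24 and 6.60 in Th2, and 7.51 and 5.78 in Th17. Both Tfh arrays exceeded all cultured arrays, by 2.38 (SE 0.68, limma adjusted p 0.0208). The difference was 1.06 after quantile normalization and 1.02 after cyclic loess, no longer called, and without Tfh replicate 1 or 2 the adjusted p was 0.101 and 0.106.

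Atf6, the sensor that is cleaved into a transcription factor, read 9.07 and 9.04 in Tfh, 8.00 and 6.65 in Th1, 8.26 and 8.12 in Th2, and 8.38 and 8.28 in Th17. Its Tfh values lay above all cultured arrays, by 1.11 (SE 0.35, limma adjusted p 0.0290), but the difference was -0.09 to -0.20 under the 3 other scalings. The call held without Th1 replicate 1 and ended without each of the other 7 arrays, by its size of 0.88 in the case of Th1 replicate 2 and by adjusted p of 0.0518 to 0.133 in the others. Other probe sets of Atf6 reached -0.53.

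Xbp1, the transcription factor made active by IRE1 splicing, went the other way from Ern1. It read 12.31 and 12.26 in Tfh, 13.25 and 12.88 in Th1, 13.43 and 13.64 in Th2, and 13.17 and 13.20 in Th17. Tfh lay below all cultured arrays, by -0.98 (SE 0.12, limma adjusted p 0.000754), just under the size for a call. Its other probe sets gave -0.78, -1.06 and -2.65, so falling short depends on the set chosen. The arrays measure total Xbp1 transcript here and give no value for its spliced form.

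Herpud1, a scaffold of ER-associated degradation, read 9.83 and 9.89 in Tfh, 11.00 and 9.46 in Th1, 12.11 and 11.52 in Th2, and 11.54 and 10.05 in Th17. Tfh overlapped Th1 and was below Th2 and Th17, with a difference of -1.09 (SE 0.54, limma adjusted p 0.117). Its promoter held the only match among the listed genes to ER stress element II, ATTGGNCCACG, present in 0.037% of all promoters. The range given runs from the first base of the match to the base just after it.
Herpud1 (chr8:94386367-94386397, plus strand, 52 to 41 bases before the start): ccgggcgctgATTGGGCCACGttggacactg
Edem1, a lectin that sends glycoproteins to degradation, differed by 0.02 (SE 0.27), and Sel1l, partner of the HRD1 ligase, by 0.74 (SE 0.51). Both were negative under the 3 other scalings. The UPR element TGACGTGG was found in none of the 35 promoters and in 0.603% of all.

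Among the 3 cultured types, the means of the ER chaperones were highest in Th2 and lowest in Th1 for 11 genes and in Th17 for the other 3. All 14 ER chaperones had their highest cultured mean in Th2, as did 31% of all tested genes. Both Th1 arrays lay below both Th2 arrays in 13 of the 14, all but Calr, against 18.4% of all tested genes. Both Th2 arrays lay above the other 4 cultured arrays in 7 (Hspa5, Pdia6, Dnajb9, Dnajb11, Sdf2l1, Manf and Hyou1), against 9.55%. The median Th1 minus Th2 difference of the 14 was -0.92, with a range of -2.02 to -0.31, and that of all tested genes 0.02. After the other 3 scalings the median of the 14 was -0.87 to -0.94.

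No single gene of the 42 was called between cultured types. For Th1 against Th2, 0 of 42 were called by limma, with 0.349% of all tested genes higher and 0.895% lower. At an unadjusted p under 0.05, 8 of the 42 were lower in Th1, against 8.28% of all tested genes, and 0 were higher, against 7.42%. Of the 8, 7 were ER chaperones (Pdia3, Pdia6, Dnajb9, Sdf2l1, Manf, Creld2 and Hyou1) and the other was Xbp1. The largest were Creld2 (-2.02, SE 0.82, limma adjusted p 0.319), Dnajb9 (-1.85, SE 0.35, limma adjusted p 0.0851) and Sdf2l1 (-1.78, SE 0.40, limma adjusted p 0.118). Calls appeared when an array was left out: Dnajb9 (-2.33) and Atf6 (-1.53) without Th1 replicate 1, and Sdf2l1 (-1.78, limma adjusted p 0.0487 and 0.0477) without Th17 replicate 1 or 2.

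All 14 ER chaperones were negative in Th1 minus Th2, so a split by the ER stress element could not differ in sign. The 7 genes with a match ranged from -2.02 to -0.31, with a median of -0.65. The 5 genes with a promoter entry and no match (Pdia3, Pdia4, Dnajb9, Dnajb11 and Sdf2l1) ranged from -1.85 to -0.46, with a median of -1.01. Whether the element bears on this pattern was not tested.

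Th2 against Th17 had the matching sign in all 14 ER chaperones, with a median of 0.70 and a range of 0.19 to 1.49. By limma 0 of 42 genes were called (background 0.483% higher and 0.188% lower), and at an unadjusted p under 0.05 Dnajb9 (1.12), Sdf2l1 (1.01) and Hyou1 (0.99) were higher in Th2, against 6.11% of all tested genes, and 0 lower, against 7.4%. Without Th17 replicate 1, Creld2 (2.81, limma adjusted p 0.0476) and Hyou1 (1.57, limma adjusted p 0.0462) were called. Th1 against Th17 gave 0 calls by limma (background 0.0626% and 0.0805%) and 0 of 42 at an unadjusted p under 0.05 (background 4.12% higher and 5.61% lower). Without Th1 replicate 1, Atf6 was called at -1.68.

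**Figure D5:**
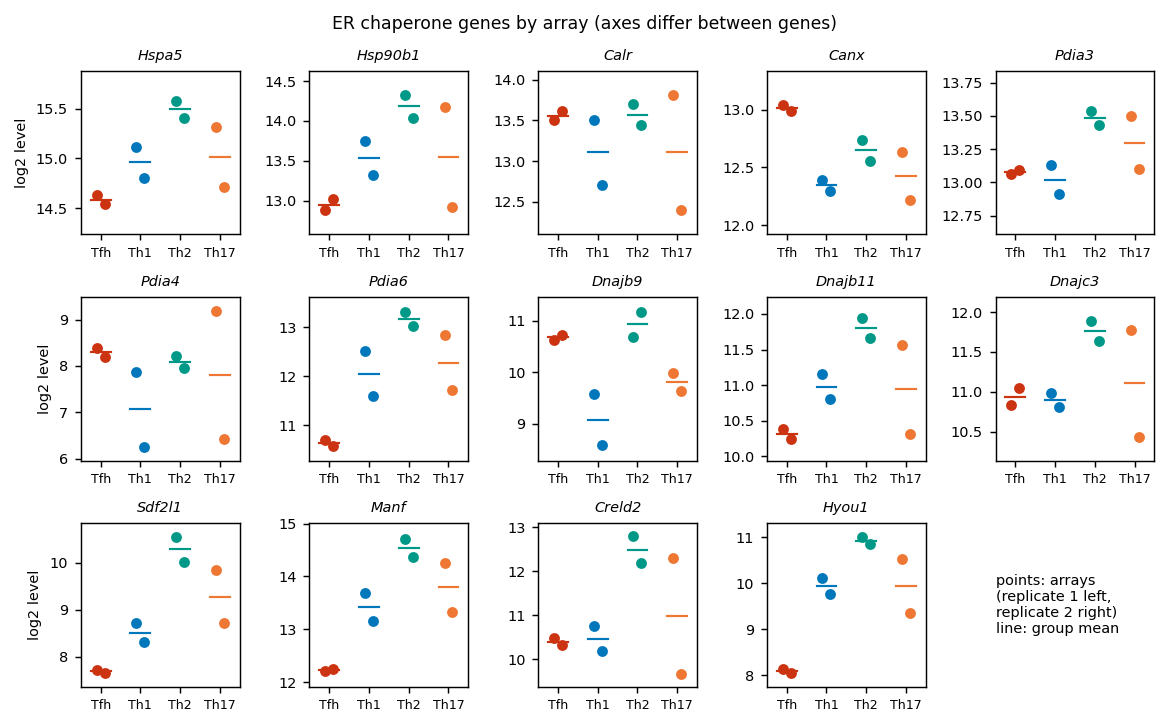
Each panel is 1 ER chaperone gene, with log2 level on the vertical axis and its own range; points are arrays (replicate 1 left, replicate 2 right) and lines group means. Th2 has the highest cultured mean in all 14 panels, the 2 Th17 points lie far apart in many, and the Tfh points lie lowest in Hspa5, Pdia6, Sdf2l1, Manf and Hyou1.

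The cultured types also differed in markers of other cells. Mzb1, an ER protein of B cells and plasma cells, read 2.69 and 3.85 in Th1, 9.43 and 10.26 in Th2, and 9.50 and 6.58 in Th17. The plasma cell list of 8 genes had a log2 summed level of 12.21 to 12.79 in Th1, 12.91 to 13.46 in Th2 and 12.95 to 13.12 in Th17. The B cell list had 6.4 to 7.57, 8.24 to 9.83 and 7.44 to 9.28, and the myeloid and dendritic list 11.72 to 12.14, 11.91 to 13.75 and 12.66 to 12.80. Their part in the ER pattern was not tested. Th2 replicate 2 had the highest cultured B cell sum (9.83), plasma cell sum (13.46) and Mzb1 level (10.26), and a myeloid sum of 11.91. In the plasma cell list, Irf4 or Pou2af1 had the highest level on every cultured array. Irf4 read 12.33 and 11.33 in Th1 and 11.61 and 12.27 in Th2. Within Th17 the plasma cell sum was 12.95 in replicate 1 and 13.12 in replicate 2, where Pou2af1 read 9.84 and 11.74. The other plasma cell genes above the filter value were each higher in replicate 1. The B cell sum (9.28 and 7.44) and all 14 ER chaperones were also higher in replicate 1.

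The cytosolic genes ran opposite to the ER genes between Th1 and Th2, by small amounts. Of 18, 16 had a positive Th1 minus Th2 difference, with a median of 0.15, against 6245 of the 11178 tested genes, with a median of 0.02. Both Th1 arrays lay above both Th2 arrays in 10 (Hspa4, Hspa8, Hsph1, Bag3, Stip1, Ahsa1, Cct2, Cct5, Cct7 and Cct8), against 25% of all tested genes. The largest was Bag3 at 0.44 (SE 0.46), and none passed the test.

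The spread between replicates differed from group to group. In Th17, all 14 ER chaperones were higher in replicate 1, by a median of 1.14, and 9 differed by over 1, which is 64.3% against 12% of all tested genes. Creld2 read 12.30 and 9.68, Pdia4 9.19 and 6.43, Calr 13.81 and 12.40, and Dnajc3 11.78 and 10.44. The widest gaps of this pair were cytosolic, 6.96 for Hspa1a and 5.82 for Hspa1b. In Th1, all 14 ER chaperones were likewise higher in replicate 1, by a median of 0.41, but 7.14% of them differed by over 1, against 12.8% of all tested genes. The 6 sensors and degradation factors were higher in Th1 replicate 1 by a median of 1.13. Th2 replicates differed by a median of 0.27 in ER chaperones and by less than 1 in every one of the 42 genes.

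Part of the PERK pathway list split the same arrays. Of 11 genes, 6 were higher by over 1 in replicate 1 of Th1 and 7 in replicate 1 of Th17. These included 5 in both (Atf4, Ddit3, Trib3, Chac1 and Nupr1), and in Th2 there were 2. Of the 11178 tested genes, 760 were higher by over 1 in replicate 1 of Th1, 721 of Th17 and 445 of Th2. Other genes of the list did not split so, such as Nfe2l2 at 8.79 and 9.76 in Th1 and Ppp1r15b at 10.18 and 10.21. Chac1 read 8.39 and 4.76 in Th1, 8.64 and 7.51 in Th2, and 8.12 and 4.24 in Th17. Trib3 read 8.41 and 5.53, 9.31 and 7.98, and 8.36 and 5.12, and the transcription factor Atf4 read 12.61 and 11.27, 13.02 and 12.39, and 12.46 and 11.29. In each of these 3 genes, replicate 1 of Th1 and of Th17 lay above replicate 2 by over 1 on the log2 scale. In the Tfh pair, no member differed by over 0.28, and 0.0984% of all tested genes differed by over 1, against 6.23% to 12.8% in the cultured pairs. With the Tfh arrays counted as 1 sample, 1 gene was higher and 5 were lower than the cultured mean (background 38.6% and 4.65%). Against Th1 these were 2 and 2 (36.2% and 4.24%), against Th2 1 and 5 (36.9% and 4.85%), and against Th17 1 and 2 (34.9% and 4.12%).

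Other genes of these pathways were taken from lists by function, and the counts that follow stand against 43.7% of all tested genes called higher and 6.66% called lower (12.6% and 6.63% in all 4 scalings). Of 33 tested cytosolic chaperones outside the 42, 8 were higher and 2 lower in Tfh than in the cultured mean. The 33 include Hspa13, which also stands on the list of ER folding genes below and was not called. Bag2, an inhibitor of the ubiquitin ligase CHIP, was -3.62 (SE 0.52). Its Tfh values of 3.20 and 3.19 lay close to the filter value of 3.13, so this size is unsure. The prefoldin subunit Pfdn4 was -1.02 (SE 0.15) and the J protein Dnajb2 was 3.59 (SE 0.54). Bag2, Pfdn4 and Dnajb2 were each called in all 4 scalings. Hspa4l, an HSP110 relative, was the only one called between cultured types, at 1.43 for Th1 minus Th2 (SE 0.18, limma adjusted p 0.0294) and -1.83 for Th2 minus Th17 (SE 0.18, limma adjusted p 0.0181). Of 11 mitochondrial chaperones and proteases 0 were called against the cultured mean by limma as deposited. The 2 higher and 2 lower at an unadjusted p under 0.05 also passed the adjusted test and missed only the size: Clpx (0.92) and Timm44 (0.57), both negative under the 3 other scalings, and Tomm70a (-0.43) and Grpel1 (-0.46). The median of the 11 was 0.002 as deposited, -1.19 after the median shift, -1.28 after quantile normalization and -1.12 after cyclic loess. The medians of all tested genes were 0.84, -0.35, -0.17 and -0.03 in the same order.

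Of 21 further ER folding and translocation genes, 1 was higher and 4 lower in Tfh, the lower ones in all 4 scalings. These were the isomerase Pdia5 (-4.20, SE 0.39, with both Tfh arrays under the filter value, and at least 3.54 lower with those raised to it), the oxidase Ero1a (-3.24, SE 0.63), the BiP exchange factor Sil1 (-1.35, SE 0.23) and the translocon-associated Ssr3 (-1.11, SE 0.25). Ero1a read 9.18 and 9.24 in Tfh, 12.70 and 10.76 in Th1, 13.61 and 13.77 in Th2, and 12.77 and 11.06 in Th17, so Tfh lay below all cultured arrays and Th2 was highest. Of 15 degradation genes, 4 were higher and 1 lower, Derl3 (-2.42, SE 0.53), which also stands on the plasma cell list. Its Tfh values too were under the filter value, and raised to it the difference was -2.28. Of 11 PERK pathway genes 4 were higher, and of 9 genes of UPR signalling 6 were higher, none in all 4 scalings. Between Th1 and Th2 the median of the ER folding list was -0.54, and Creb3, an ER-bound transcription factor, was lower in Th1 by -1.35 (SE 0.16, limma adjusted p 0.0243).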

How the data were processed

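The deposited values are log2 expression on Affymetrix arrays with 45101 probe sets, summarised by the authors with GCRMA per the submitters' processing notes. The sources do not name the GCRMA version or the arrays normalized as a set. Of the probe sets, 34945 named 1 gene in the platform annotation, 932 several and 9160 none. For each gene the probe set with the highest mean was used, and a gene was tested if 2 or more arrays exceeded the 50th percentile of the values. All 7 comparisons came from 1 limma fit (limma 3.58.1, R 4.3.3) over the 8 arrays, 1 coefficient per group, empirical Bayes with a trend (4 residual and 1.78 prior degrees of freedom), two-sided, tested on simulated data. SE is that of the fit. The number of arrays limits the precision.

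The genes and lists were chosen with earlier results of these data known. All members were accounted for and called members were named. Genes of other lists were named where called in every scaling, at most 4 each way. Atf4, Ddit3, Chac1, Trib3, Nupr1, Nfe2l2, Ppp1r15b, Hspa13, Hspb1, Hspb8, Cryab, Cct6a, Clpx, Timm44, Tomm70a, Grpel1, Irf4 and Pou2af1 were named after their values were seen. Alternatives were 3 other scalings, filters, probe set rules, variance models, no size threshold, each array left out, a replicate block, cultured arrays alone and the Tfh arrays as 1. Values at or below the filter value were raised to it for 3 genes, chosen after seeing the data. Promoters came from RefSeq (GRCm38.p6) by symbol, 35 of 44 found; Hspa8, Hsp90aa1, Hsp90ab1, Hsf1, Cct4, Hspa9, Manf, Hyou1 and Atf6 had no entry.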

Additional observations from a re-analysis of the deposited data

How the results depend on the processing

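Counts of called genes against the cultured mean depended on the scaling. After the median shift 1 was higher and 29 lower, after quantile normalization 1 and 15, and after cyclic loess 1 and 10, with backgrounds that rose too. Against Th1 the median shift gave 1 higher and 26 lower, quantile normalization 0 and 12, and cyclic loess 1 and 10. Against Th2 these were 1 and 28, 1 and 16, and 1 and 14. Against Th17 they were 1 and 27, 0 and 12, and 1 and 9. With no size threshold 13, 10 and 11 were lower against the mean, Th1 and Th17. With the Tfh arrays as 1 sample, 1 was higher against the mean, 2 higher and 2 lower against Th1, 1 and 5 against Th2, and 1 and 2 against Th17. The mean of probe sets gave 5 higher against Th2. Leaving out 1 array gave 1 to 5 higher and 5 to 8 lower against the mean, 1 to 7 and 2 to 5 against Th1, 1 to 4 and 5 to 10 against Th2, and 1 to 7 and 2 to 9 against Th17. It gave 0 to 2 lower for Th1 against Th2 and against Th17, and 0 to 2 each way for Th2 against Th17. Where this leaves 1 array in a group, that array is assumed to vary like the others. No share of all tested genes is given for single fits with 1 array left out, the mean of probe sets or the replicate block. Their counts thus cannot be set against a background. The cause of these changes was not tested.

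Differences from the cultured mean changed sign in 15 genes or fewer per scaling. After the median shift they were Hspa4 -0.997, Hsph1 -0.48, Dnaja1 -0.71, Dnajb1 -1.04, Stip1 -1.17, Ahsa1 -1.10, Cct4 -1.16, Cct5 -1.12, Calr -0.90, Canx -0.65, Pdia4 -0.55, Dnajb9 -0.46, Atf6 -0.085, Edem1 -1.17 and Sel1l -0.45. After quantile normalization they were Hspa4 -0.23, Dnaja1 -0.042, Dnajb1 -0.69, Stip1 -0.89, Ahsa1 -0.73, Cct4 -0.25, Cct5 -0.29, Calr -0.088, Pdia4 -0.81, Dnajb9 -0.24, Atf6 -0.20, Edem1 -0.77 and Sel1l -0.40. After cyclic loess they were Hspa4 -0.061, Dnajb1 -0.48, Stip1 -0.65, Ahsa1 -0.52, Cct4 -0.040, Cct5 -0.054, Pdia4 -0.64, Dnajb9 -0.067, Atf6 -0.088, Edem1 -0.57 and Sel1l -0.25. The mean of probe sets gave Trap1 0.19 and Sel1l -0.087. Probe sets without shared-probe names gave Hspe1 -0.72 (no longer called), Cct4 -0.17 and Hyou1 0.26, with Hyou1 0.74 against Th1 and 0.63 against Th17. With 1 array left out, Stip1 ranged from -0.058 to 0.099, Cct4 from -0.047 to 0.12 and Edem1 from -0.14 to 0.17.

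With replicate number as a block, 4 genes were higher and 6 lower against the cultured mean, 5 and 4 against Th1, 3 and 10 against Th2, and 2 and 5 against Th17, with 0 between cultured types. Deviations of same-numbered arrays correlated at 0.255 (Th1 and Th17) and 0.268 (Th2 and Th17) but at -0.002 to 0.042 in the other 4 pairs of groups over all tested genes, and at -0.344 to 0.39 over the 42. The labels do not say what a number marks, and the arrays were not taken as paired. The filters, the variance models and fits on the cultured arrays alone, also after their own quantile normalization (chosen after seeing the data), left every count within 1.5 times. Other probe sets of Hspa1b gave up to 5.01. The 300-base promoter window added matches in Hsph1 (heat shock element) and Dnajb11 (ER stress element II).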
